A study of Mus musculus with 24 samples.

Results

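The interferon-related gene family described here held 84 protein-coding genes, chosen by their symbols from the 45792 genes of a count table of mouse cortical neurons. They were the interferon receptors (Ifnar and Ifngr), the STAT and IRF transcription factors, the Ifi, Ifit, Ifitm and Isg genes named for interferon, the Oas and Gbp genes, Samd9l, and the Gimap GTPases. Of these, 41 had enough reads to be tested and 43 did not. The family was proposed after the responses to BDNF at 24 h were known, in particular those of Ifi209 and Gimap6. The comparisons that use the 24 h libraries are therefore given as descriptions, and no p-value is printed for them. A call in them marks only that an adjusted p was under 0.05.

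The study asked whether the histone variant H2BE, a form of the nucleosome protein H2B, controls gene expression that depends on neuronal activity. Polyadenylated RNA was sequenced from primary neurons of the cortex, taken from E16.5 embryos and kept in culture for 12 days. The KO neurons lacked H2BE and carried an mCherry reporter knocked in (H2BE-KO/mCherry-KI), and the WT neurons were wild type. Neurons of each genotype were untreated (control) or were exposed to brain-derived neurotrophic factor (BDNF), a secreted protein that acts on neurons through the receptor TrkB, for 30 min or 24 h before collection, with 4 libraries in each of the 6 groups. A code in the sample descriptions tied the control, 30 min and 24 h libraries of a replicate to 1 culture. The labels do not say how many embryos went into a culture, and p-values here measure the spread between these libraries.

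Interferons are secreted signals of antiviral defence. They bind paired receptor chains, whose JAK kinases phosphorylate STAT proteins. A complex that holds STAT2 and IRF9 then binds the interferon-stimulated response element (ISRE) in target promoters, and STAT3, which responds mainly to cytokines of the interleukin-6 type, binds a motif of the gamma-activated sequence (GAS) type. The Ifi200 genes encode proteins with pyrin or HIN domains, several of which sense DNA, and the Gimap genes encode GTPases best known from lymphocyte survival.

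The promoters of 6 members are shown because these genes carry the results below or, for Isg15, because it holds the textbook response element. Each runs 5′ to 3′ from 250 bases before to 50 bases after the RefSeq start on GRCm38.p6. Capitals mark matches, on either strand, to an ISRE (GAAA, any 2 bases, then GAAA), a GAS (TTCNNNGAA), an AP-1 site (TGANTCA) or a cyclic AMP response element (TGACGTCA). Gimap6 (chr6:48708195-48708494, minus strand) held 1 GAS, Ifi203 (chr1:173942623-173942922, minus strand) and Ifi209 (chr1:173630609-173630908, plus strand) held 1 AP-1 match each, and Stat3 (chr11:100939491-100939790, minus strand) held no match. Stat2 (chr10:128270248-128270547, plus strand) held 1 ISRE, and Isg15 (chr4:156200769-156201068, minus strand) held a run of 3 overlapping ISRE matches.
Gimap6: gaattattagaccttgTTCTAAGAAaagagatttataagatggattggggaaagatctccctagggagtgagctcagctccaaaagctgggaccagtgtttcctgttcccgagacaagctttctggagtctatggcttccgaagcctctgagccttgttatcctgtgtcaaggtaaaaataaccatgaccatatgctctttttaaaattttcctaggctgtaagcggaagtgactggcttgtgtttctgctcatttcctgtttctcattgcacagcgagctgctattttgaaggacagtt
Ifi203: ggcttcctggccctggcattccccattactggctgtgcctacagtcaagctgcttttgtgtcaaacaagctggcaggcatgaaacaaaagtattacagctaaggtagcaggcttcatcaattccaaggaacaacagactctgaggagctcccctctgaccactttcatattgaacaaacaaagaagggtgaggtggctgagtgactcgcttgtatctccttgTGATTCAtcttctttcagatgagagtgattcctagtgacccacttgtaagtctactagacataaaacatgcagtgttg
Ifi209: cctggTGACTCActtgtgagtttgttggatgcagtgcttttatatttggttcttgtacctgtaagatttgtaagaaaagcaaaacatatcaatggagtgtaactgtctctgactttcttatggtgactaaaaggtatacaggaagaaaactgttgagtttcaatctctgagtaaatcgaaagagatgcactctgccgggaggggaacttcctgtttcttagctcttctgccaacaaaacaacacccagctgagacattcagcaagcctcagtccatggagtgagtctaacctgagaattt
Stat3: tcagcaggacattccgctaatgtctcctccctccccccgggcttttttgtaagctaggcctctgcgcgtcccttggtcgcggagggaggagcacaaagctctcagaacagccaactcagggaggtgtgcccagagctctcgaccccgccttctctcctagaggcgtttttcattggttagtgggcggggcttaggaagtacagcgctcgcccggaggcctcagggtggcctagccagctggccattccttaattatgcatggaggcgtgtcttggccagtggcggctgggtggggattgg
Stat2: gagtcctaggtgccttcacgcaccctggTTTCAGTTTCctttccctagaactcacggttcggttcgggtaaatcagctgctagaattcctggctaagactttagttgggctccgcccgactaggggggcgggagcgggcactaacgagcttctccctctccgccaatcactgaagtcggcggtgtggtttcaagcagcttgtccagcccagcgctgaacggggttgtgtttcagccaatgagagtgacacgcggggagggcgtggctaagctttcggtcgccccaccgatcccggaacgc
Isg15: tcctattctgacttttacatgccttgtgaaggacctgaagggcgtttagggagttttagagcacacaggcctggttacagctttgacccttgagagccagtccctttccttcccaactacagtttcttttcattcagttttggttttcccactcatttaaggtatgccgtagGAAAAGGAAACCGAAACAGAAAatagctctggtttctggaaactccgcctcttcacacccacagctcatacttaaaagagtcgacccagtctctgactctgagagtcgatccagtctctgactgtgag

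RefSeq promoters were at hand for 70 members. An ISRE was found in 26 of them (37.1%), against 3.44% of all 32851 promoters of the same length. A GAS was found in 17 (24.3%), against 8.3% of all promoters, and an AP-1 match in 9 (12.9%), against 7.81%. A cyclic AMP response element, the site bound by CREB, was found in 0 members and in 1.79% of all promoters. These matches are descriptions of the letters in the window, not of binding.

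Libraries held 19780486 to 62135270 counts. Mitochondrial genes took 4.18% to 6.40% of counts in the WT libraries, 4.20% to 9.34% in KO cultures 1 to 3, and, in KO culture 4, 18.5% in control, 21.7% at 30 min and 10.9% at 24 h. Reads of Hist2h2be, the gene that encodes H2BE, were higher in KO (49.96 to 63.1 CPM in 11 libraries) than in WT (3.15 to 5.83 CPM in 12 libraries) and so do not check the deletion. The library labelled KO 24 h replicate 4 stood between the genotypes, with 21.3 CPM. The library labelled KO 30 min replicate 4 held Ifi209 and Gimap6 at or above the levels of 24 h libraries. Results that rest on these 2 libraries are therefore also given without them. The library KO 30 min replicate 3 also stood apart. It was the shallowest, with 19780486 counts, and detected 15323 genes, against 17926 to 21537 in the other libraries, and even numbers made up 85.05% of its counts between 1 and 20, the highest share of any library. Most low counts were even numbers (71.7% of the counts between 1 and 20), as when both mates of a read pair are counted, so a summed read number below may stand for fewer fragments.

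Most members were barely present in these neurons. Among the 43 untested members the highest total over all 24 libraries was 144 reads, the median was 17, and 41 stayed under 100 reads. Neither Gimap3 nor Oas1g had a read. The 10 highest totals were those of Stat5a (144 reads), Oasl2 (103), Gbp3 (89), Gbp2 (86), Ifi27l2a (86), Ifit3 (78), Ifitm7 (72), Oas3 (71), Ifi214 (70) and Ifit3b (63). Textbook targets of type I interferon were among the low genes, with 4 reads in all for Ifit1, and, although tested, 133 reads for Irf7 and 239 for Isg15, a ubiquitin-like modifier. Reads of the ligands were scarcer still. Of 17 interferon genes, 13 had no read. Ifng, the gene for interferon gamma, had 30, 21 and 44 reads summed over the 4 KO control, 30 min and 24 h libraries, against 0, 0 and 3 reads in WT. The other ligand genes had 18 reads together, of which Ifnab had 12 and Ifnb1 had 4.

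Receptor chains, some STAT factors and Isg20l2 were among the members with the higher levels per length. Per kilobase of exon, Ifngr2, the signalling chain of the interferon gamma receptor, averaged 24.3 CPM in KO control libraries and 29.2 CPM in WT control libraries. Ifnar1, a chain of the type I interferon receptor, averaged 8.57 CPM per kilobase in KO control and 10.7 in WT control. Stat3 averaged 6.996 CPM per kilobase in KO control and 4.13 in WT control, and Stat2 averaged 2.62 in KO control and 7.31 in WT control. The order of these 2 factors was thus opposite in the genotypes. Isg20l2, named for its likeness to the exonuclease gene Isg20, averaged 5.12 CPM per kilobase in KO control and 5.40 in WT control, and it was called in no comparison. Ifi209 averaged 0.384 CPM per kilobase in KO control and 0.0406 in WT control, and 6.37 in KO and 6.18 in WT after 24 h of BDNF, so that at 24 h its level per length was above that of Stat2 in both genotypes.

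By family, the 4 receptor genes were all tested and held 164414 reads. The STAT factors (6 of 7 tested) held 121299 reads and the IRF factors (9 of 9 tested) held 30602. The Ifi200 genes (5 of 11 tested) held 10569 reads, the Gimap genes (3 of 8) 6009 and the Ifit and Ifitm genes (6 of 13) 7350. The Oas genes (1 of 11 tested) held 1228 reads and the Gbp genes (1 of 10) held 701. The other 11 members, 6 of them tested, held 24162 reads, most of them from Isg20l2 (16481). A member passed the filter if 4 libraries, for example those of the group where it was high, had enough reads, so counts among the tested members do not describe the whole family.

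Several members stand together in the genome (mm10). The 11 Ifi200 genes lie within 563.3 kb at chr1:173468485-174031810, the 8 Gimap genes within 123.6 kb at chr6:48647234-48770851, and Stat3, Stat5a and Stat5b within 158.8 kb at chr11:100780731-100939540. Ifnar1, Ifnar2 and Ifngr2 lie within 192.8 kb at chr16:91372783-91565623. The Ifi200 genes also share sequence. Of the 50-base windows along its exons, 33.7% of those of Ifi209 were found in another gene, mostly Ifi214, as were 20.9% for Ifi208, 20% for Ifi204 and 12.4% for Ifi203, so some of their reads could have been split or moved by the authors' counting, of which the sources used here say nothing. Ifi203 also overlaps Mndal (177 reads) on the same strand. For Gimap6, 0.17% of windows were shared.

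After 24 h of BDNF, 4 tested members were higher and 0 lower in KO neurons, where 5.61% of all tested genes were called in either direction, 2.91% higher and 2.7% lower. In WT neurons 8 members were higher and 1 lower, where 18.7% of tested genes were called, 9.55% higher and 9.13% lower. Since the family was proposed from this contrast, nothing is read from these counts. In bulk RNA, more cells of a type and more RNA per cell cannot be told apart. The higher members in KO were Ifi209, Ifi203, Gimap6 and Stat3. Those in WT were the same 4 genes with Ifi202b, Ifi204, Gimap8 and Irf8, and the lower one was Ifngr2. The 41 members had a median log2 fold change of 0.10 in KO, against -0.03 over all tested genes, and of 0.04 in WT, against -0.01 over all tested genes, and 37 members in KO and 32 in WT were not called. Sorting the calls by family, 2 of 5 tested Ifi200 genes were called in KO and 4 of 5 in WT, 1 of 3 Gimap genes in KO and 2 of 3 in WT, and none of the Ifit, Ifitm, Oas, Gbp or Isg genes in either genotype. A member could pass the filter through its 24 h libraries alone, so nothing is read from this sorting either.

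Ifi209 (ENSMUSG00000043263, chr1:173630917-173647928) is a pyrin-domain member of the Ifi200 genes. In KO it stood at 1.89, 0.317, 0.543 and 2.69 CPM in control, 1.08, 0.643, 0.618 and 31.4 after 30 min and 27.1, 20.8, 18.1 and 24.4 after 24 h. In WT it stood at 0.120, 0.176, 0.232 and 0.0471 CPM in control, 0.0443, 0.315, 0.0987 and 0 after 30 min and 14.3, 28.3, 30.0 and 15.2 after 24 h. All 24 h libraries of both genotypes were above all control libraries of their genotype, KO control was above WT control in every library, and the library labelled KO 30 min replicate 4 was above every 24 h library. The log2 fold change at 24 h over control was 4.14 ± 0.96 in KO and 7.24 ± 1.21 in WT (± SE). Both genotypes were at about the same level at 24 h, with means of 22.6 ± 3.93 CPM in KO and 21.9 ± 8.35 CPM in WT (SD, n = 4 each), and their control means were 1.36 ± 1.13 CPM in KO and 0.144 ± 0.0790 CPM in WT.

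Ifi203, another gene of that cluster, was far lower. Its reads summed to 9, 12 and 136 in KO and to 28, 28 and 323 in WT over control, 30 min and 24 h. KO held 0, 0.111, 0.0679 and 0 CPM in control, 0, 0.0677, 0 and 0.361 after 30 min and 0.574, 0.483, 0.287 and 1.23 after 24 h. WT held 0.301, 0.132, 0.232 and 0.0941 CPM in control, 0.310, 0.0630, 0.0494 and 0.168 after 30 min and 3.85, 1.35, 0.626 and 2.20 after 24 h. The 24 h libraries were above the control libraries in each genotype without overlap, by 3.55 ± 0.95 in KO and 3.41 ± 0.84 in WT on the log2 scale. In KO the call was lost when any of KO control replicates 1, 3 or 4 or KO 24 h replicates 1 or 4 was left out, at log2 fold changes of 3.03 to 3.65.

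Ifi204, which encodes a sensor of foreign DNA, had 90 reads at 24 h and 10 in control in KO, and 98 at 24 h and 2 in control in WT. Per library this was 0.0472, 0, 0.204 and 0.0963 CPM in control, 0.0746, 0, 0 and 0 after 30 min and 0.459, 0.242, 0.345 and 0.719 after 24 h in KO, and 0, 0.0440, 0 and 0 CPM in control, 0.0443, 0.0630, 0 and 0 after 30 min and 0.584, 0.765, 0.350 and 0.703 after 24 h in WT. The ratio of CPM at 24 h over control was 7.18 in KO (95% exact interval 2.86 to 23.2) and 47.0 in WT (8.05 to 1894), where the intervals cover counting error only. In the model the log2 fold change was 2.49 ± 0.89 in KO, which was not called, and 5.29 ± 1.09 in WT. With culture as a block Ifi204 was also called in KO.

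Ifi202b encodes a HIN-domain protein without a pyrin domain. It had 0.0472, 0, 0.0679 and 0 CPM in control, 0.0373, 0.0338, 1.75 and 0.904 after 30 min and 0.268, 0.282, 0.632 and 0.188 after 24 h in KO, and 0, 0, 0 and 0 CPM in control, 0, 0.0315, 0 and 0 after 30 min and 0.319, 0.281, 0.150 and 0.264 after 24 h in WT. In WT control it had 0 reads, against 41 reads at 24 h, at least 13.1-fold higher when the control is set at 3 counts over the group. In KO the 24 h libraries held 61 reads and the control libraries 4, and both high 30 min values belong to replicates 3 and 4, the libraries described above as standing apart.

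Gimap6 (ENSMUSG00000047867, chr6:48701582-48708225) held most of the reads of its family. KO neurons had 2.74, 1.01, 1.56 and 1.97 CPM in control, 2.20, 0.846, 4.22 and 12.3 after 30 min and 12.3, 9.98, 9.54 and 14.8 after 24 h. WT neurons had 0.361, 0.330, 0.812 and 0.517 CPM in control, 0.575, 0.283, 0.543 and 0.588 after 30 min and 8.63, 14.03, 19.8 and 9.77 after 24 h. The 24 h libraries lay above the control libraries in all 4 cultures of each genotype, with log2 fold changes of 2.69 ± 0.53 in KO and 4.70 ± 0.59 in WT. Group means at 24 h were 11.7 ± 2.44 CPM in KO and 13.1 ± 5.05 CPM in WT.

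Gimap8 stood at 0.0944, 0.254, 0 and 0 CPM in control, 0.187, 0.237, 0 and 0.271 after 30 min and 0.230, 0.121, 0.287 and 0.205 after 24 h in KO, and at 0.120, 0, 0.174 and 0.0471 CPM in control, 0.133, 0.142, 0.0987 and 0.0840 after 30 min and 0.212, 0.867, 0.551 and 0.351 after 24 h in WT. Its log2 fold change at 24 h was 0.99 ± 0.83 in KO, which was not called, and 2.56 ± 0.85 in WT, where the call was lost without WT control replicate 1, 2 or 4 or WT 24 h replicate 2 or 3 (2.12 to 2.78). Gimap4 had 1.28 ± 0.96 in KO and 2.37 ± 1.09 in WT, neither called.

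Irf8, a transcription factor of myeloid cells, had 144 reads at 24 h and 50 in control in KO, and 249 at 24 h and 12 in control in WT. Its CPM was 0.472, 0.381, 0.204 and 0 in KO control, 0.373, 0.271, 0 and 0.181 after 30 min and 0.727, 0.604, 0.575 and 0.958 after 24 h. In WT it was 0, 0.132, 0 and 0.141 in control, 0.177, 0.173, 0.148 and 0.714 after 30 min and 1.78, 2.19, 1.35 and 0.922 after 24 h. The 24 h groups did not overlap the control groups. The log2 fold change was 1.34 ± 0.74 in KO, which was not called, and 4.36 ± 0.86 in WT.

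Stat3 (ENSMUSG00000004040, chr11:100885098-100939540) was the most abundant of the members that were higher at 24 h. In KO it measured 68.9, 74.4, 72.3 and 51.1 CPM in control, 71.5, 83.3, 86.6 and 60.8 after 30 min and 113, 126, 103 and 67.7 after 24 h. In WT it measured 39.5, 39.1, 38.8 and 39.9 CPM in control, 34.1, 38.6, 41.1 and 43.1 after 30 min and 75.0, 79.4, 87.3 and 80.7 after 24 h. The WT groups at 24 h and control did not overlap, whereas in KO the library labelled 24 h replicate 4 lay below 3 of the control libraries although above the control of its own culture. The 24 h over control log2 fold change was 0.62 ± 0.15 in KO and 1.03 ± 0.15 in WT, and 0.78 in KO without the libraries labelled KO 30 min replicate 4 and KO 24 h replicate 4. The KO call was lost without KO 24 h replicate 1 or 2 or KO control replicate 4 (0.50 to 0.57). Without KO 24 h replicate 1 or KO control replicate 4, the KO count over the whole family was 2.

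Ifngr2 was the member that fell in WT. It measured 82.3, 84.0, 84.4 and 115 CPM in control, 83.9, 80.8, 92.9 and 97.0 after 30 min and 68.9, 62.3, 70.5 and 97.8 after 24 h in KO. It measured 116, 107, 101 and 117 CPM in control, 125, 109, 98.9 and 108 after 30 min and 78.2, 76.6, 73.0 and 83.4 after 24 h in WT. All WT 24 h libraries were below all WT control libraries, and the log2 fold change was -0.29 ± 0.12 in KO, which was not called, and -0.50 ± 0.12 in WT. The partner chain Ifngr1, which binds the ligand, was not called, with 2.88, 3.09, 3.16 and 5.87 CPM in control, 3.13, 2.64, 4.53 and 5.33 after 30 min and 3.56, 3.06, 4.63 and 4.52 after 24 h in KO and 3.55, 4.62, 3.31 and 2.92 CPM in control, 3.27, 3.70, 3.16 and 3.57 after 30 min and 4.30, 3.78, 4.93 and 3.87 after 24 h in WT.

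When the culture was added as a block, the KO count at 24 h went up to 7 members, Ifi202b and Ifi204 being added as higher and Ifngr2 as lower, and the 4 members of the unblocked count were all kept. Without the libraries labelled KO 30 min replicate 4 and KO 24 h replicate 4 the KO count was 5, with Ifngr2 as the added member. Groups at 24 h and control did not overlap for 8 members in KO, all higher at 24 h, and for 11 in WT, of which 9 were higher and 2 lower. Of all tested genes, 12.8% had groups that did not overlap in KO and 30.7% in WT, where 5.61% and 18.7% were called, and nothing is read from the members' counts. Summed microglia markers, given in full below, were 35.6 to 45.7 CPM at 24 h and 25.0 to 41.3 CPM in control in KO, and 21.6 to 30.7 CPM at 24 h and 12.6 to 17.5 CPM in control in WT, and their part in these values was not tested.

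**Figure D1:**
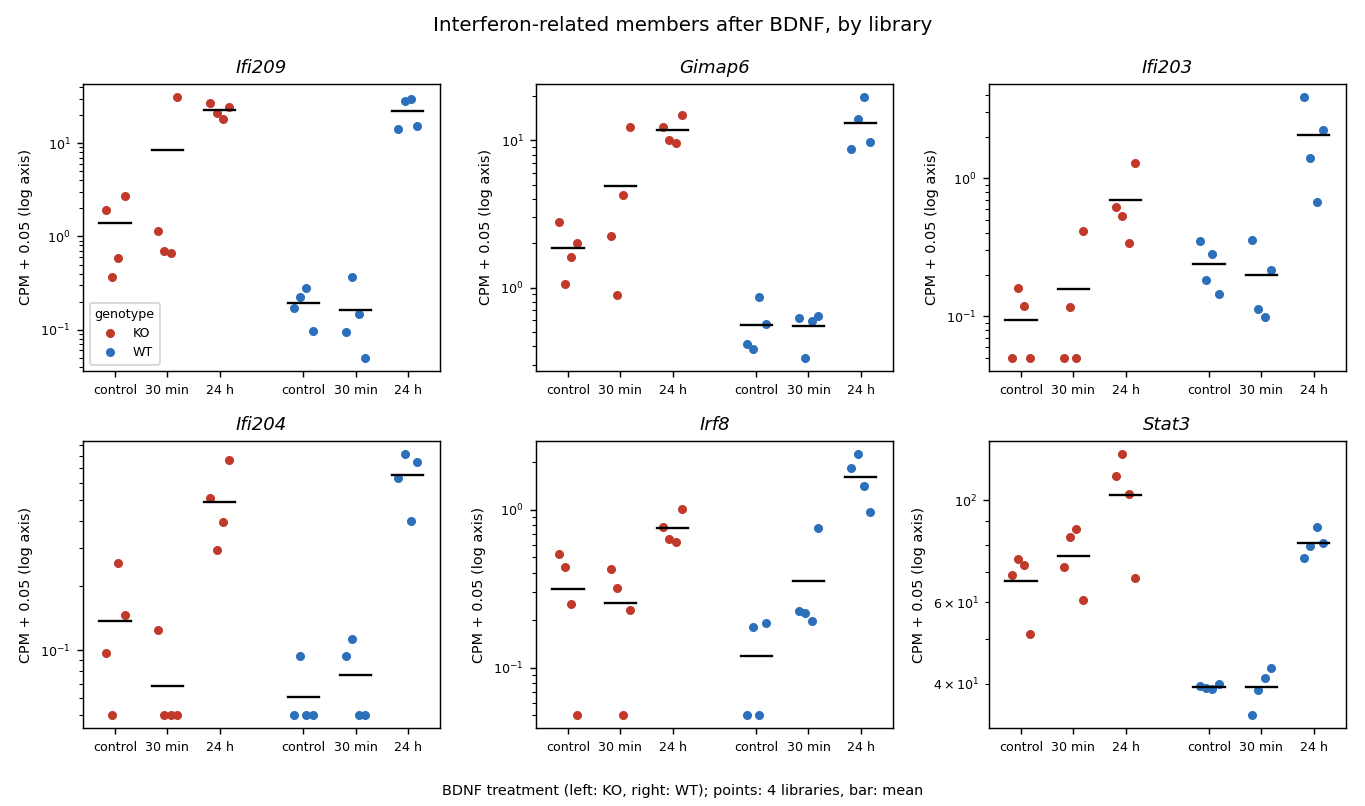
CPM of 6 members by library, on log axes with 0.05 added so that libraries without reads can be shown, with KO on the left and WT on the right of each panel and the 3 treatments in order. Points are the 4 libraries of a group and bars are means. Ifi209 and Gimap6 are high in every 24 h library and in 1 KO library at 30 min (31.4 and 12.3 CPM).

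**Figure D2:**
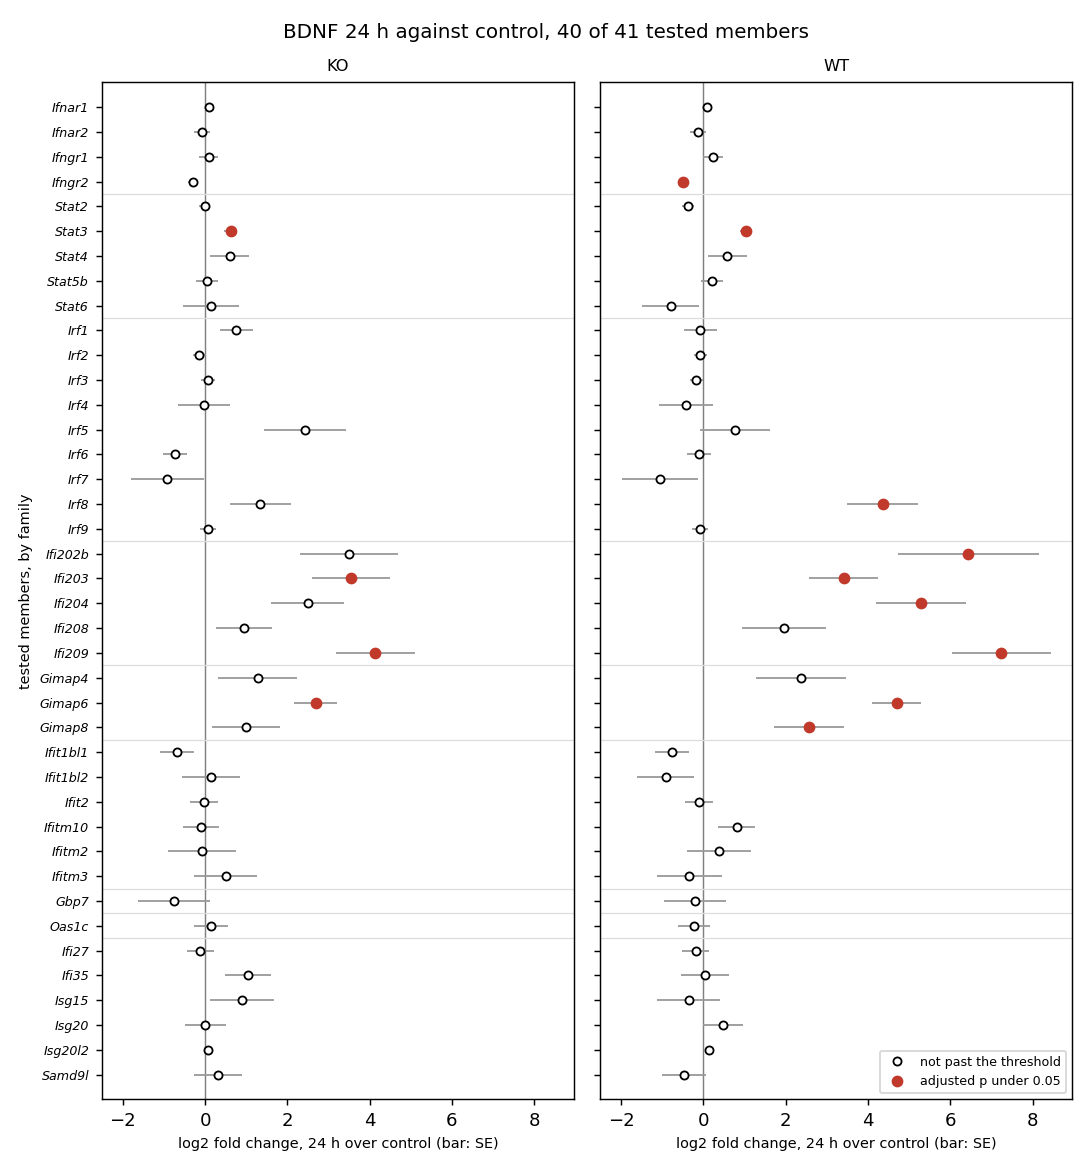
Log2 fold change of BDNF 24 h over control with its SE for 40 of the 41 tested members, KO in the left panel and WT in the right, with members grouped by family. Filled points have an adjusted p under 0.05, 4 in KO and 9 in WT, and most receptor, IRF, Ifit and Ifitm genes lie near 0.

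The remaining members showed no called change at 24 h. Irf9, the DNA-binding partner of STAT2, measured 5.52, 6.84, 6.52 and 10.2 CPM in control, 6.79, 6.95, 5.87 and 11.3 after 30 min and 7.16, 7.75, 7.45 and 8.24 after 24 h in KO. It measured 9.05, 7.65, 5.54 and 6.68 CPM in control, 8.83, 8.22, 6.89 and 7.27 after 30 min and 6.85, 7.30, 6.28 and 7.07 after 24 h in WT, with log2 fold changes of 0.08 ± 0.19 in KO and -0.07 ± 0.19 in WT. Irf3, the factor activated by nucleic acid sensors, measured 6.18, 6.98, 5.81 and 9.38 CPM in control, 5.597, 6.79, 8.55 and 6.64 after 30 min and 7.12, 8.49, 7.27 and 6.67 after 24 h in KO and 5.62, 6.75, 7.31 and 7.53 CPM in control, 5.97, 7.40, 5.13 and 6.07 after 30 min and 5.21, 6.58, 6.33 and 6.08 after 24 h in WT, with 0.06 ± 0.17 in KO and -0.17 ± 0.17 in WT. Ifnar2 measured 6.49, 5.04, 7.13 and 9.38 CPM in control, 5.52, 5.65, 9.79 and 11.02 after 30 min and 6.43, 6.24, 6.87 and 6.95 after 24 h in KO and 9.83, 8.05, 8.01 and 8.07 CPM in control, 8.70, 8.99, 7.45 and 7.57 after 30 min and 7.67, 7.32, 8.26 and 7.58 after 24 h in WT, with -0.07 ± 0.20 in KO and -0.14 ± 0.19 in WT. For these 3 genes the 24 h and control groups overlapped in WT. Isg15 had 50 reads at 24 h and 24 in control in KO, and 34 at 24 h and 45 in control in WT, a log2 fold change of 0.91 ± 0.78 in KO and -0.36 ± 0.75 in WT. Of the 10 tested members with an ISRE in the promoter window, 0 were called at 24 h in either genotype, where 5.61% of all tested genes in KO and 18.7% in WT were called. One of them, Stat2, was called lower in WT with culture as a block (-0.37), and also with DESeq2 and with the 2 compared groups alone, where Ifit1bl1 was called lower as well (-0.76).

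After 30 min of BDNF no member was called in KO (0 of 41, where 0.125% of all tested genes were called) or in WT (0 of 41, where 0.37% were called). DESeq2 also called 0 members in each genotype, as did the fit without the libraries labelled KO 30 min replicate 4 and KO 24 h replicate 4. At an unadjusted p under 0.05 there were 4 members in KO and 1 in WT, against 722 and 303 of all 16777 tested genes (4.30% and 1.81%). The 4 in KO were Ifi202b (4.41 ± 1.202), Ifi209 (2.68 ± 0.93), Gimap6 (1.40 ± 0.52) and Stat4 (1.05 ± 0.48), named after their values were seen, and for Ifi209 and Gimap6 the library labelled KO 30 min replicate 4 was the highest of its group. The 1 in WT was Irf8 (2.01 ± 0.86), the only member whose 30 min and control libraries did not overlap, as was so for 3.19% of all tested genes, with 1 high library (replicate 4). In WT, Ifi209 was 0.114 ± 0.140 CPM at 30 min and 0.144 ± 0.0790 CPM in control, Gimap6 0.497 ± 0.144 CPM at 30 min and 0.505 ± 0.221 in control, and Stat3 39.2 ± 3.88 CPM at 30 min and 39.3 ± 0.485 in control. The median log2 fold change of the members was 0.093 in KO and 0.004 in WT, against -0.005 and 0.002 over all tested genes.

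The genotypes were then compared within each condition. In control libraries 4 members were higher in KO (Ifi208, Gimap6, Stat5b and Stat3) and 3 were lower (Samd9l, Stat2 and Ifnar1). Of all tested genes, 21.4% were called in this comparison, 11.3% higher and 10.1% lower, so that 7 of 41 members is a share near that of all genes. At 30 min 7 members were higher in KO (Ifi209, Ifi202b, Ifi208, Gimap4, Gimap6, Stat3 and Stat5b) and 5 lower (Samd9l, Gbp7, Stat2, Ifit2 and Ifnar1), where 28.4% of all tested genes were called, 14.6% higher and 13.8% lower, again a share near that of the members. At 24 h 1 member was higher (Ifi208) and 3 were lower (Samd9l, Stat2 and Ifnar1), where 13.3% of all tested genes were called, 7.09% higher and 6.16% lower. Ifi208 was thus higher, and Samd9l, Stat2 and Ifnar1 lower, in KO in all 3 conditions. The members' median log2 fold change, KO over WT, was 0.05 in control, 0.13 at 30 min and -0.02 at 24 h, against 0.03, 0.02 and 0.00 over all tested genes. Beside the higher Ifi208, Ifi209 and Gimap6 in KO, the summed level of 18 microglia markers was also higher in KO, at 25.0 to 41.3 CPM in KO control and 12.6 to 17.5 CPM in WT control, and the part of such cells in these differences was not tested.

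Stat2 (ENSMUSG00000040033, chr10:128270559-128292849), whose protein joins IRF9 in the complex described above, had the lowest adjusted p of the members in control and at 30 min. In KO it measured 16.8, 16.54, 13.2 and 15.6 CPM in control, 16.1, 16.1, 21.2 and 13.2 after 30 min and 12.6, 14.2, 14.5 and 20.4 after 24 h. In WT it measured 45.0, 46.3, 41.4 and 40.7 CPM in control, 41.6, 43.9, 35.5 and 34.7 after 30 min and 34.5, 35.4, 30.1 and 34.3 after 24 h. Every KO library was below every WT library in each condition, and the highest KO values, 21.2 and 20.4 CPM, belonged to 30 min replicate 3 and to the library labelled 24 h replicate 4. KO differed from WT by a log2 fold change of -1.48 ± 0.14 in control (adjusted p = 4.93e-07), -1.23 ± 0.14 at 30 min (adjusted p = 2.61e-06) and -1.12 ± 0.14 at 24 h. Under the alternative settings it ranged over -1.54 to -1.42 in control, -1.36 to -1.08 at 30 min and -1.29 to -0.98 at 24 h, and it stayed called under 17 of 17, 17 of 17 and 16 of 17 of them.

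Stat3 and Stat5b, neighbours on chromosome 11, stood higher in KO. Stat3, whose values are given above, exceeded WT in every KO control and 30 min library, by 0.76 ± 0.15 in control (adjusted p = 0.000675) and 0.95 ± 0.15 at 30 min (adjusted p = 5.89e-05) on the log2 scale. At 24 h it was 0.34 ± 0.15, not called, and 0.49 without the libraries labelled KO 30 min replicate 4 and KO 24 h replicate 4, when it was called. Stat5b, which acts downstream of growth hormone and several cytokines, measured 25.4, 27.5, 24.6 and 17.7 CPM in control, 28.2, 28.7, 19.2 and 21.1 after 30 min and 30.7, 28.6, 26.6 and 12.8 after 24 h in KO. It measured 12.4, 11.8, 10.2 and 19.97 CPM in control, 9.96, 11.9, 10.6 and 20.1 after 30 min and 11.9, 13.2, 14.3 and 23.4 after 24 h in WT. Culture 4 of WT was above the other 3 WT cultures in each condition, and the library labelled KO 24 h replicate 4 was below the other KO libraries. The log2 fold change was 0.81 ± 0.28 in control (adjusted p = 0.0388), 0.89 ± 0.28 at 30 min (adjusted p = 0.0184) and 0.65 ± 0.27 at 24 h. The control call was lost without any of replicates 1 to 3 of either genotype (adjusted p = 0.0810 to 0.115), and the 30 min call without KO replicate 1 or 2 or WT replicate 1, 2 or 3 (0.0558 to 0.0683).

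Ifnar1 was lower in KO by a small and even amount. It measured 50.4, 51.0, 50.9 and 51.3 CPM in control, 55.4, 50.1, 43.0 and 44.5 after 30 min and 52.8, 53.9, 50.8 and 60.7 after 24 h in KO. It measured 63.8, 65.7, 61.2 and 64.5 CPM in control, 68.7, 62.9, 60.3 and 61.8 after 30 min and 70.4, 68.0, 67.7 and 64.8 after 24 h in WT. Each KO group was wholly below its WT group, with log2 fold changes of -0.33 ± 0.08 in control (adjusted p = 0.00475), -0.39 ± 0.08 at 30 min (adjusted p = 0.000784) and -0.31 ± 0.08 at 24 h. Ifngr2 was -0.27 ± 0.12 in control (adjusted p = 0.130) and -0.32 ± 0.12 at 30 min (adjusted p = 0.0568), and it was called in both conditions without the libraries labelled KO 30 min replicate 4 and KO 24 h replicate 4, at -0.29 (adjusted p = 0.0310) and -0.38 (adjusted p = 0.00959). Neither Ifnar2 nor Ifngr1 was called in any condition.

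Samd9l, an interferon-induced gene whose protein restrains virus growth and cell growth, had 0.236, 0.952, 0.883 and 0.866 CPM in control, 0.485, 0.643, 0.103 and 0.452 after 30 min and 0.497, 0.523, 0.403 and 2.15 after 24 h in KO. It had 6.25, 4.84, 3.5 and 1.69 CPM in control, 7.70, 5.13, 3.26 and 1.303 after 30 min and 3.19, 2.91, 3.35 and 2.28 after 24 h in WT. WT culture 4 was the lowest of the WT cultures in each condition, and all KO values except 2.15 CPM in the library labelled 24 h replicate 4 were under 1 CPM. KO differed from WT by a log2 fold change of -2.48 ± 0.58 in control (adjusted p = 0.00351), -3.27 ± 0.61 at 30 min (adjusted p = 0.000354) and -1.68 ± 0.56 at 24 h, or -2.62 at 24 h without the libraries labelled KO 30 min replicate 4 and KO 24 h replicate 4. The 24 h call was lost without any single one of the other 7 libraries of that comparison (-1.81 to -1.47).

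Ifi208, a pyrin-domain gene of the Ifi200 cluster at chr1:173673675-173698395, had 407 reads in the 12 KO libraries and 26 in the 12 WT libraries. In KO it measured 0.401, 0.317, 0.747 and 0.963 CPM in control, 0.522, 1.01, 0 and 0.994 after 30 min and 1.05, 0.986, 1.4 and 1.13 after 24 h. In WT it measured 0.0601, 0, 0.0580 and 0 CPM in control, 0, 0.0315, 0.0494 and 0 after 30 min and 0.106, 0.102, 0.200 and 0.0439 after 24 h. The groups did not overlap in control or at 24 h, and at 30 min 1 KO library had no read. The log2 fold change was 4.33 ± 0.94 in control (adjusted p = 0.00185), 4.81 ± 0.93 at 30 min (adjusted p = 0.000501) and 3.31 ± 0.77 at 24 h. Its untested neighbours Ifi213 and Ifi214, which share 13.6% and 14.5% of their 50-base windows with Ifi208 and Ifi209, had 56 and 62 reads in KO, against 0 and 8 reads in WT. With WT set at 3 counts over a group, Ifi213 was at least 4.34-fold higher in KO in control, 4.25-fold at 30 min and 9.15-fold at 24 h. These folds rest on 13, 10 and 33 KO reads, found in 8 of the 12 KO libraries, and no interval is given for them. For Ifi203 the totals ran the other way, with 157 reads in KO and 379 in WT, and its KO over WT log2 fold change was -1.76 ± 1.004 in control, -0.66 ± 0.97 at 30 min and -1.62 ± 0.76 at 24 h, none called.

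Gimap6 was higher in KO before any response at 24 h, by 1.85 ± 0.58 in control (adjusted p = 0.0249) and 3.27 ± 0.57 at 30 min (adjusted p = 0.000185), and every KO library of these conditions was above every WT library. Without the libraries labelled KO 30 min replicate 4 and KO 24 h replicate 4 the 30 min value was 2.21. The control call was lost without KO control replicate 1 or WT control replicate 1, 2 or 4 (adjusted p = 0.0542 to 0.0878). At 24 h the 2 genotypes were -0.16 ± 0.48 apart. Ifi209 was 3.15 ± 1.26 in control (adjusted p = 0.0779), 5.99 ± 1.17 at 30 min (adjusted p = 0.000572) and 0.04 ± 0.81 at 24 h. Without the libraries labelled KO 30 min replicate 4 and KO 24 h replicate 4 it was 3.13 in control, where it was then called, and 2.61 at 30 min. Neither library is in the control comparison, but all groups share 1 estimate of the spread. KO 30 min replicate 4 was singled out by its Ifi209 and Gimap6 levels, so no p-value is printed for these 2 genes without it.

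Of the lower-level calls at 30 min, Ifi202b (5.67 ± 1.28, adjusted p = 0.00252) rested on KO replicates 3 and 4, whose CPM values were 1.75 and 0.904. Leaving out KO culture 4 and KO 30 min replicate 3 gave 1.61 (adjusted p = 0.352). Gimap4 measured 0.613, 0.222, 0.272 and 0 CPM in control, 0.149, 0.474, 0 and 1.90 after 30 min and 0.957, 0.564, 0.575 and 0.719 after 24 h in KO and 0.0601, 0.0440, 0.232 and 0 CPM in control, 0, 0, 0.0987 and 0 after 30 min and 0.159, 0.561, 0.726 and 0.264 after 24 h in WT. Its 30 min difference was 4.66 ± 1.26 (adjusted p = 0.00759), and 3.26 without the libraries labelled KO 30 min replicate 4 and KO 24 h replicate 4 (adjusted p = 0.0520). Gbp7, a guanylate-binding GTPase of host defence, measured 0.260, 0.190, 0.0679 and 0 CPM in control, 0.261, 0.135, 0 and 0 after 30 min and 0.0765, 0.141, 0 and 0.103 after 24 h in KO and 0.451, 0.418, 0.116 and 0.565 CPM in control, 0.531, 0.409, 0.592 and 1.55 after 30 min and 0.372, 0.255, 0.150 and 0.571 after 24 h in WT. Its difference was -2.66 ± 0.82 (adjusted p = 0.0176), and it was lost without WT 30 min replicate 4, the highest WT library (-2.08, adjusted p = 0.0835). Ifit2, an RNA-binding protein gene of the tetratricopeptide type, measured 1.75, 1.76, 1.46 and 2.02 CPM in control, 1.72, 1.57, 0.618 and 1.18 after 30 min and 1.76, 1.21, 1.87 and 1.98 after 24 h in KO and 2.62, 1.76, 1.28 and 4.00 CPM in control, 2.37, 2.33, 1.33 and 4.35 after 30 min and 2.34, 2.12, 2.15 and 2.33 after 24 h in WT. Its difference was -0.99 ± 0.35 (adjusted p = 0.0354), and the call was lost without KO 30 min replicate 3 or 4 or WT 30 min replicate 1 or 4 (adjusted p = 0.0539 to 0.192).

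The IRF factors, which bind ISRE-like sites, gave no call between the genotypes. Irf5, a myeloid factor whose gene overlaps the far more abundant Tnpo3 on the opposite strand, came nearest in control, with 0.0904 ± 0.0852 CPM in KO and 0.632 ± 0.522 CPM in WT and a log2 fold change of -2.75 ± 1.002 (adjusted p = 0.0534). Irf8 was 1.90 ± 0.87 in control (adjusted p = 0.124). Irf1, an activator of interferon target genes, was -1.05 ± 0.41 at 30 min (adjusted p = 0.0552), and Irf2, a repressor at the same sites, was 0.40 ± 0.16 at 30 min (adjusted p = 0.0708). The more even Irf3 and Irf9 lay within 0.05 ± 0.17 and 0.00 ± 0.20 of WT in control. Among the untested Gbp genes, Gbp9 had 8 reads in KO and 54 in WT, and Gbp5 had 7 reads in KO and 36 in WT, whereas Gbp2 had 58 in KO and 28 in WT.

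Leaving out the libraries labelled KO 30 min replicate 4 and KO 24 h replicate 4 gave 11 called members in control (5 higher, 6 lower), 12 at 30 min (7 higher, 5 lower) and 8 at 24 h (3 higher, 5 lower). The share of all tested genes called in that fit is not given here, so the change in the members' counts is not read as a result. The control additions were Ifi209, higher, and Irf5, Oas1c and Ifngr2, lower, those at 30 min were Irf2, higher, and Ifngr2, lower, in place of Gimap4 and Ifit2, and those at 24 h were Stat3 and Stat5b, higher, and Ifi203 and Oas1c, lower. KO and WT groups did not overlap for 9 members in control, 12 at 30 min and 9 at 24 h, shares near those of all tested genes, whose groups did not overlap for 26.5%, 25.3% and 18.9% and of which 21.4%, 28.4% and 13.3% were called.

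The descriptions number and spell the libraries in 2 ways, which splits them into a set with KO culture 1 and WT cultures 1 and 2 and a second set with the other 5 cultures. With the set as a term, 7 members were called in control, 13 at 30 min and 3 at 24 h. Shares of all tested genes called with the set as a term or alone are not given here, so nothing is read from these counts. Within the second set alone, 1 was called in control (Stat2, -1.46, adjusted p = 0.00386), 3 at 30 min (Stat2, -1.08, adjusted p = 0.0115; Gimap6, 3.32, adjusted p = 0.0370; Ifi209, 7.79, adjusted p = 0.0446) and 0 at 24 h, and all called members kept their direction. At 24 h over control, that set alone gave 0 calls in KO and 1 in WT (Gimap6, 4.47). The first set holds 1 KO culture and gives no test of its own.

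**Figure D3:**
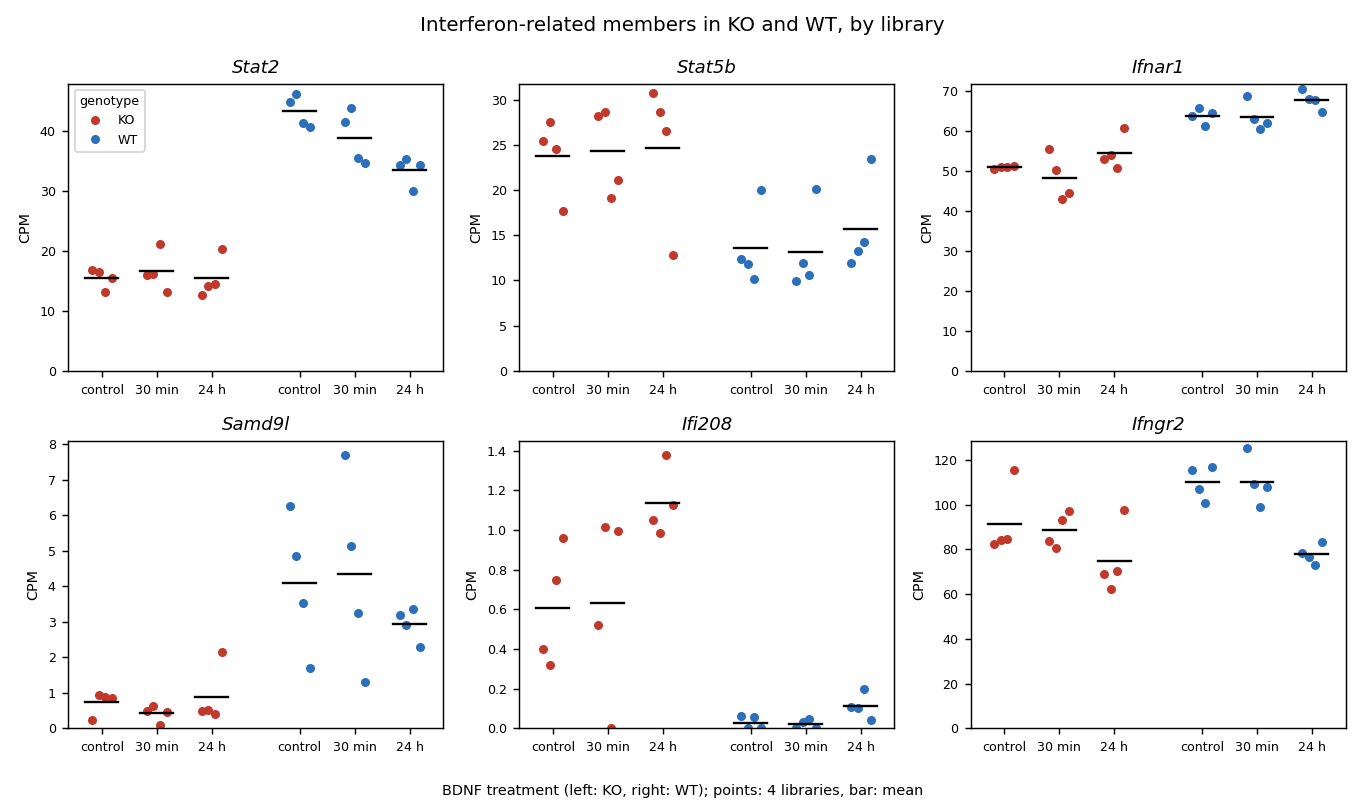
CPM of 6 members by library on linear axes that start at 0, with KO on the left and WT on the right of each panel and the 3 treatments in order. Points are the 4 libraries of a group and bars are means. All 12 KO libraries of Stat2 lie at 21.2 CPM or lower and all 12 WT libraries at 30.1 CPM or higher, and Stat5b and Samd9l of the KO library labelled 24 h replicate 4 lie apart from the other KO libraries.

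**Figure D4:**
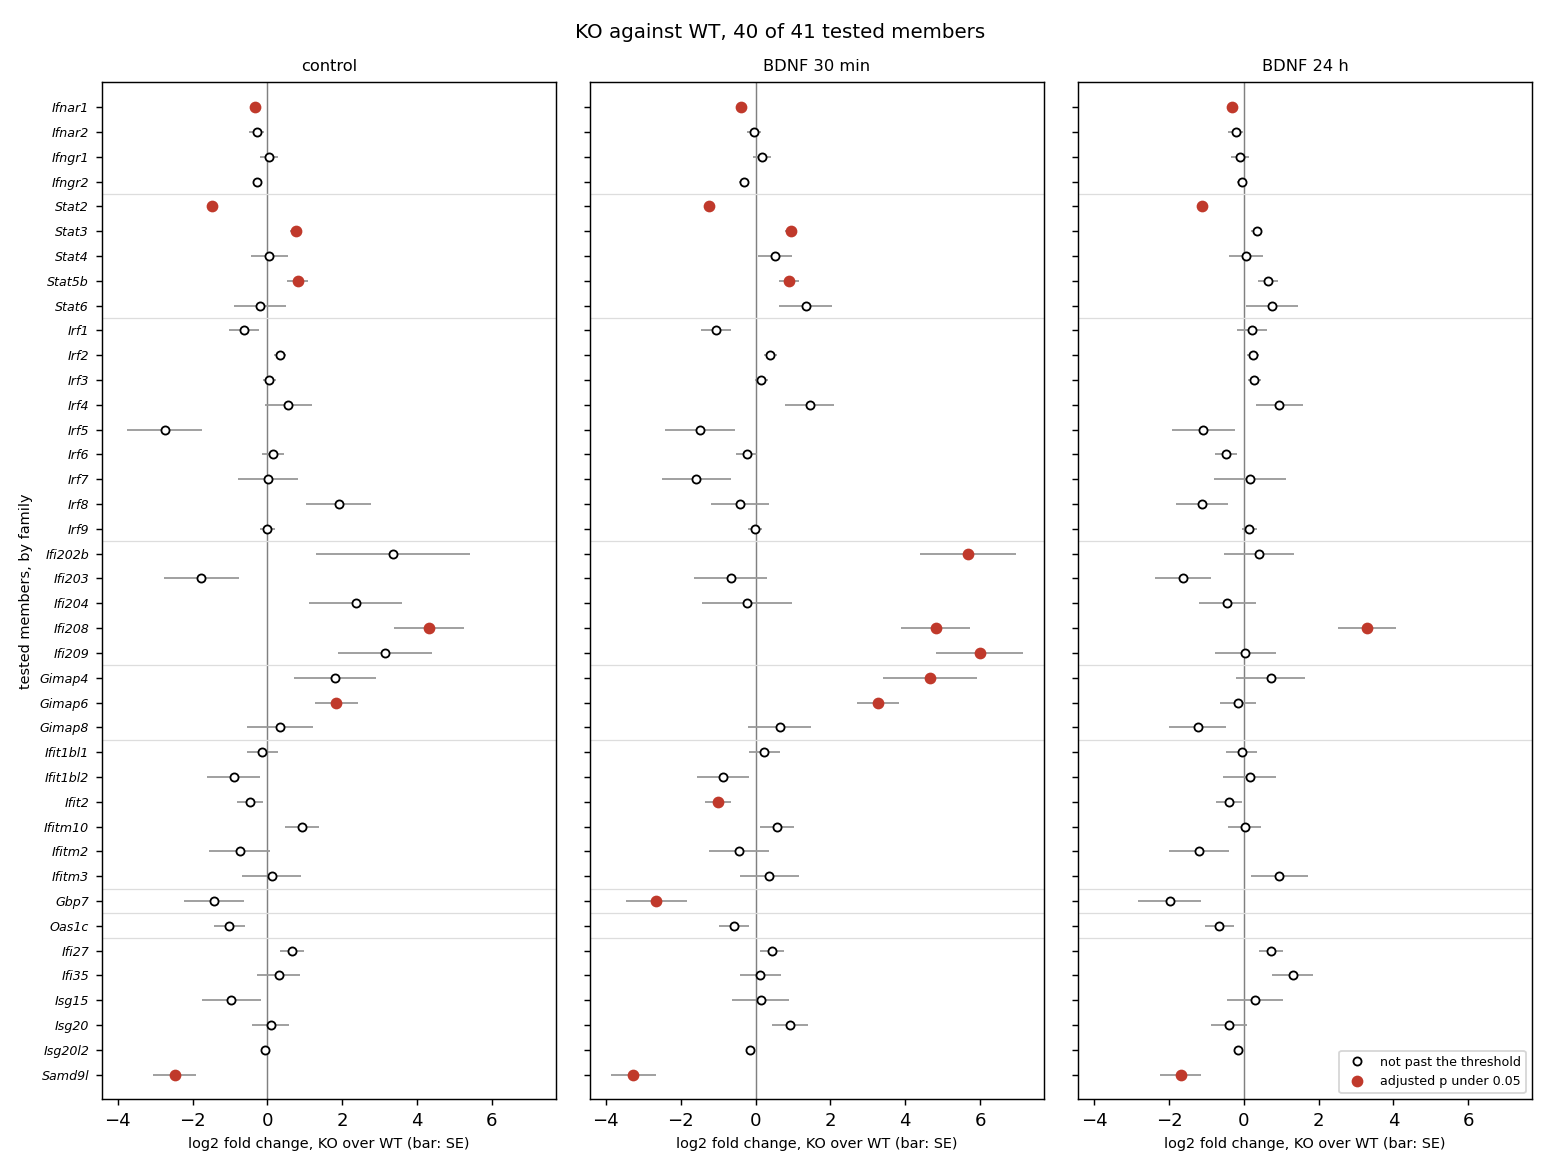
Log2 fold change of KO over WT with its SE for 40 of the 41 tested members in control, at 30 min and at 24 h of BDNF, with members grouped by family. Filled points have an adjusted p under 0.05, 7 in control, 12 at 30 min and 4 at 24 h. Stat2, Samd9l and Ifnar1 are to the left of 0 and Ifi208 to the right in each panel.

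The difference of the BDNF response between the genotypes was called for 0 of 41 members at 30 min and for 0 of 41 at 24 h, where 0.0477% and 0.0358% of all tested genes were called (at 24 h, 0.0238% with a larger and 0.0119% with a smaller value in KO). DESeq2 called 0 members in both, and at an unadjusted p under 0.05 there were 0 members at 30 min. Over all 16777 tested genes the count at that p was 301 at 30 min. Since the family was proposed from the 24 h responses, their differences are given as descriptions. The KO minus WT difference in log2 fold change at 24 h was -3.02 ± 1.11 for Irf8, -2.01 ± 0.75 for Gimap6, -3.11 ± 1.51 for Ifi209, -2.80 ± 1.45 for Ifi204 and -0.42 ± 0.21 for Stat3. These 5 genes were named after their values were seen. All 5 values were below 0, but since the genes were picked by these values, the shared sign is not read as a result. Over the 41 tested members 22 differences were above 0, with a median of 0.014, against -0.013 over all tested genes. The 2 responses of a gene were not shown to differ. Ifi203, called at 24 h in both genotypes, went the other way, with a slightly larger value in KO than in WT (given above). With culture as a block 1 member was called at 24 h, Stat3, with a difference of -0.43. For Ifi209 and Gimap6 the KO and WT libraries overlapped at 24 h, and in control every KO library was above every WT library.

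Other genes of the pathway were followed in lists that hold none of the members. Their counts stand beside calls for 21.4% of all tested genes between genotypes in control (11.3% higher and 10.1% lower), 28.4% at 30 min and 13.3% at 24 h, and for 5.61% in KO and 18.7% in WT at 24 h over control. Among JAK kinases and inhibitors of cytokine signals, 20 of 21 genes were tested. In control 1 was higher in KO (Socs5, 0.51 ± 0.12) and 2 lower (Jak2, -0.38 ± 0.12, and Socs7, -0.29 ± 0.09), and at 30 min 1 was higher and 5 were lower, the lowest being Cish (-1.10 ± 0.27), a STAT5 target that inhibits cytokine receptors. At 24 h over control Jak2 was higher in KO (0.45 ± 0.12), and Socs2 (-0.82 ± 0.24) and Pias1 (-0.52 ± 0.14) were lower in WT. Of 36 other interferon-stimulated genes, 21 were tested. After 24 h Cmpk2 fell in both genotypes (-0.69 ± 0.19 in KO and -1.09 ± 0.18 in WT), and in WT Mx1 (-2.82 ± 0.83) and Parp10 (-0.78 ± 0.22) fell and Phf11d (2.80 ± 0.91) rose. In control, KO was lower than WT for Cmpk2 (-0.94 ± 0.18) and higher for Parp10 (0.78 ± 0.22).

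Genes of antigen presentation by class I molecules, many of which respond to interferon, were tested for 18 of 22. After 24 h 1 was higher in KO (H2-T22, 0.63 ± 0.16), and in WT 5 were higher, among them B2m (1.08 ± 0.26), the light chain of class I molecules, and H2-M3 (1.09 ± 0.30), and 1 was lower (Tapbp, -0.58 ± 0.14). In control 5 were higher in KO than in WT, among them B2m (0.9996 ± 0.26), Erap1 (1.09 ± 0.25) and Psmb10 (0.92 ± 0.18), and 2 were lower, H2-K1 (-1.06 ± 0.26) and H2-D1 (-0.56 ± 0.13). Of 22 tested NF-kB and cytokine genes, 2 were higher in KO at 24 h over control (Sele, 4.32 ± 0.78, and Lifr, 0.91 ± 0.25) and 3 in WT, including the gp130-linked receptor Il6ra (1.35 ± 0.24), and 5 were higher in KO than WT in control, including Il6st (0.46 ± 0.13), which encodes the gp130 chain that signals to STAT3. Sele reads rose in both genotypes, from 20 in control to 537 at 24 h in KO and from 6 to 1030 in WT. Between genotypes, 6 of these 22 genes were higher in KO at 30 min, and 5 were higher and 2 lower at 24 h. Among 15 tested genes of nucleic acid sensing, 1 was higher at 24 h in WT (Ticam1, 1.25 ± 0.23), and 2 were higher in KO than WT in control (Ticam1, 0.71 ± 0.23, and Traf3, 0.33 ± 0.12). At 30 min no gene of these 5 lists was called in either genotype.

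Because Irf8, Irf5, the Ifi200 and the Gimap genes are also known from immune cells, markers of other cell types were measured. Counts of called markers stand beside calls for 21.4% of all tested genes between genotypes in control, 28.4% at 30 min and 13.3% at 24 h. At 24 h over control, 5.61% of all tested genes were called in KO and 18.7% in WT. Nothing is read from the counts of called markers. The 10 neuron markers summed to 8452 to 9659 CPM in KO libraries and 7845 to 9275 CPM in WT libraries. Single markers differed between genotypes in control. The GABA synthesis genes Gad1 (1.0295 ± 0.28) and Gad2 (1.19 ± 0.42) were higher in KO, and Rbfox3 (-0.70 ± 0.16), Tubb3 (-0.73 ± 0.08), the glutamate transporter gene Slc17a7 (-0.74 ± 0.25) and Neurod6 (-0.88 ± 0.29) were lower. At 30 min 3 were higher and 4 lower, and at 24 h 1 was higher and 1 lower. Microglia markers (18 genes) summed to 25.0 to 41.3 CPM in KO control, 26.1 to 56.2 at 30 min and 35.6 to 45.7 at 24 h, and to 12.6 to 17.5 CPM in WT control, 14.5 to 18.8 at 30 min and 21.6 to 30.7 at 24 h. Cd68, a lysosomal protein gene that held 15471 of these reads, rose at 24 h in WT (2.08 ± 0.34) and was the only 1 of 14 tested markers called there, 0 being called in KO. In control 3 of 14 were higher in KO than in WT (Cd68, 2.30 ± 0.34, Csf1r, 3.08 ± 0.77, and Laptm5, 1.87 ± 0.64), 5 at 30 min and 1 at 24 h. The median log2 fold change of the 14 tested markers, KO over WT, was 2.08 in untreated libraries, 2.05 after 30 min and 1.71 after 24 h. In control C1qa had 84 reads in KO and 16 in WT, C1qc 80 in KO and 14 in WT, Trem2 43 in KO and 6 in WT, and Fcrls 92 in KO and 16 in WT, with no call for any of these 4. Some markers of the same list were near 0, with 46 reads of P2ry12, 30 of Tmem119 and 3 of Siglech over all 24 libraries. Lymphocyte markers summed to 6.21 to 12.2 CPM, almost all from Lck (5.66 to 11.3 CPM), with 12 reads of Cd3e in all. Endothelial markers summed to 5.49 to 12.3 CPM, with 84 reads of Cldn5. Astrocyte markers summed to less in KO, at 211 to 514 CPM, than in WT, at 549 to 681 CPM, with most of the reads from Slc1a2 (159 to 575 CPM). Of 10 tested astrocyte markers, 2 were called lower in KO than in WT in control, 7 at 30 min and 1 at 24 h, and 0 were called higher. Markers of the oligodendrocyte lineage summed to 23.3 to 58.6 CPM in KO and 35.6 to 89.9 CPM in WT, and those of pericytes and fibroblasts to 45.7 to 93.4 CPM in KO and 35.8 to 152 CPM in WT. The part of these other cells, and of the mix of neurons, in the values of Ifi209, Gimap6, Irf8 and their neighbours was not tested.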

How the data were processed

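Polyadenylated RNA of 24 libraries, with 8 codes read here as cultures, was sequenced. Preparation was TruSeq Stranded mRNA, per the labels' protocols. The deposited table holds raw counts per gene for each library. The submitters' processing notes name STAR 2.7.9a, DESeq2 1.38.3, limma 3.54.2, edgeR 3.40.2 and mm10; which program counted the reads, and with which strand setting and annotation, was not found in those notes, the labels or the file header. Symbols and coordinates came from GENCODE M21, which matched 98.8% of gene IDs.

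Genes were filtered with filterByExpr (minimum count 10, minimum total 15), which left 16777. They were scaled by TMM (factors 0.824 to 1.07) and tested with the quasi-likelihood test of edgeR 4.0.16 in R 4.3.3, with 1 mean per group over 24 libraries (18 residual degrees of freedom, biological coefficient of variation 23.5%). P-values were adjusted by Benjamini-Hochberg over all genes tested, and a call is an adjusted p under 0.05. CPM use TMM-scaled library sizes. The members and gene lists were chosen with earlier results of these data known. CPM in every library is given for members called in at least 1 of 9 contrasts and, whatever their values, for the receptor genes and Stat2, Stat3, Irf9 and Irf3. Ratios of low counts carry 95% exact intervals on halved reads, for counting error only.

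Libraries that share a culture code correlated in their deviations from the group means (r 0.0464 to 0.462 over 24 pairs, 22 of them over 0.1), and libraries of other cultures of that genotype did not exceed 0.0903. The code in the descriptions therefore pairs the libraries of a genotype, and culture was used as a block in an alternative fit. The other alternatives were DESeq2 1.42.0, its size factors, no filter, the compared groups alone, the library set as a term or alone, and leaving out libraries. A further member that the rule names, and a marker, are not reported here. Scripts were tested on simulated data.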

Additional observations from a re-analysis of the deposited data

Results flagged for a closer look

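In 13 of 126 groups of 4 libraries (21 named members in 6 groups), 1 library stood apart from the other 3 by more than the 95% critical value of Dixon's ratio of gap to range. Chance flags about 1 in 20 such groups. That rate does not apply to 4 of the 13, in which 1 library had reads and the other 3 had none. Gbp7 had 1.555 CPM in WT 30 min replicate 4, against 0.4092 to 0.5924 CPM in the other 3 libraries. Gimap6 had 0.2833 CPM in WT 30 min replicate 2, against 0.543 to 0.5884 CPM in the other 3 libraries. Ifi209 had 31.44 CPM in KO 30 min replicate 4, against 0.6181 to 1.082 CPM in the other 3 libraries. Ifnar2 had 9.832 CPM in WT control replicate 1, against 8.009 to 8.069 CPM in the other 3 libraries. Ifngr1 had 5.872 CPM in KO control replicate 4, against 2.878 to 3.159 CPM in the other 3 libraries. Ifngr2 had 115.3 CPM in KO control replicate 4, against 82.35 to 84.42 CPM in the other 3 libraries. Irf8 had 0.7144 CPM in WT 30 min replicate 4, against 0.1481 to 0.177 CPM in the other 3 libraries. Samd9l had 0.2359 CPM in KO control replicate 1, against 0.8663 to 0.9517 CPM in the other 3 libraries. Samd9l had 2.155 CPM in KO 24 h replicate 4, against 0.4025 to 0.5234 CPM in the other 3 libraries. Gimap4 had 0.09873 CPM in WT 30 min replicate 3, the only library of its group with reads. Ifi202b had 0.03148 CPM in WT 30 min replicate 2, the only library of its group with reads. Ifi204 had 0.07463 CPM in KO 30 min replicate 1, the only library of its group with reads. Ifi204 had 0.04397 CPM in WT control replicate 2, the only library of its group with reads. The Ifi209 value at 30 min in KO was above that of every 24 h library of either genotype, and Samd9l at 24 h in KO lies between the other KO libraries and the WT libraries. KO control replicate 4, high for both interferon gamma receptor genes, is a library of the culture with the highest mitochondrial share (18.5% in this library). What set these libraries apart was not tested.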

How the results depend on the processing

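Every called member kept its direction under every alternative that gave a value: 509 fold changes kept their call, 85 lost it and 0 reversed. Of the counts of called members, 148 stayed within 1.5 times and 15 did not. In KO at 24 h over control the count was 7 with culture as a replicate block, 6 when KO culture 4 and KO 30 min replicate 3 were both left out, and 2 to 4 when single libraries were left out. The KO minus WT difference at 24 h had a count of 1 with that block. The block within a genotype changed the calls of Stat2 in WT at 24 h (called, -0.37, as also with DESeq2, with the compared groups alone and under both exclusions of several libraries) and of the members named above, and with the replicate number as a block Ifngr2 was called between genotypes in control and at 30 min. For KO against WT in control the count was 11 with DESeq2, 15 when KO culture 4 and KO 30 min replicate 3 were both left out, 11 without the libraries labelled KO 30 min replicate 4 and KO 24 h replicate 4, and 5 to 9 with single libraries left out. At 30 min it was 7 with the compared groups alone and 10 to 15 with single libraries left out. At 24 h it was 13 when KO culture 4 and KO 30 min replicate 3 were both left out, 8 without the libraries labelled KO 30 min replicate 4 and KO 24 h replicate 4, and 3 to 6 with single libraries left out. With single libraries left out, the count was 8 to 9 in WT at 24 h, and 0 for the 30 min responses and for both differences. Library set 2 alone, which holds 3 KO and 2 WT cultures, gave 0 in KO and 1 in WT at 24 h over control, and 1, 3 and 0 for KO against WT in control, at 30 min and at 24 h; this fit has fewer libraries. Both exclusions of several libraries were chosen after seeing the data. Shares of all tested genes called under the alternatives are not given here, so changes in the members' counts are not read as results about them. Members with few reads are limited by depth: 43 were not tested, and a fold change of a gene with few reads can rest on few libraries. The causes of the other changes were not tested.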
